A study of Mus musculus with 15 samples.

Results

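Myeloid cells from the hindbrain of Twitcher mice were compared between postnatal day 20 (P20, 3 libraries) and postnatal day 15 (P15, 2 libraries), which are 5 of the 15 libraries of the study. Members were taken by genotype and age from the labels, and all 5 belong to sequencing batch 2. Twitcher (Twi) mice carry a mutant Galc gene and serve as a model of Krabbe disease. The other libraries came from Twi mice at P10 (3 libraries) and from wild type (WT) mice at P10 (2 libraries), P15 (2 libraries) and P20 (3 libraries). They enter here through the shared estimate of spread and as the same step of age without the mutation. The labels name no transgene, donor cells or drug in any group. The design text of the series does mention droplet sequencing and mice that received wild type monocytes, and no sample label assigns either to these libraries. The hindbrain, meaning brainstem and cerebellum, was dissociated by douncing, myelin was removed on Percoll, and live cells positive for CD45 and CD11b were sorted into Trizol. Nothing in the labels ties a library to an animal of its own, so p-values measure only the spread between these libraries, which may be technical.

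Galc encodes galactosylceramidase, a lysosomal hydrolase that removes galactose from galactosylceramide and from psychosine, lipids of myelin. Without it psychosine accumulates, myelin-forming cells die, and macrophages filled with undegraded lipid gather in the nerve and brain. Microglia, the resident macrophages of the brain, take up myelin debris, and in disease they lower genes of their resting state while raising interferon, chemokine, lysosome and lipid genes. A sort on CD45 and CD11b takes microglia together with monocytes, neutrophils and macrophages of the brain borders. In such a bulk sample, a lower share of a cell type and less RNA per cell cannot be told apart.

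All levels are CPM, reads scaled to library size, recovered from the deposited log2 table. A gene at or under 0.01 CPM is said to be at the lowest value of the table, where a fold has no meaning, and only its levels are given. Galc measured 7.10 and 5.49 CPM in the P15 libraries and 5.65, 8.997 and 5.97 CPM in the P20 libraries, with groups that overlap. Every WT library lay between 28 and 68.5 CPM, above every Twi library. Microglial markers were abundant in all 5 libraries: P2ry12, a purine receptor, ranged from 5133 to 11770 CPM, and Tmem119, a membrane protein of microglia, from 2589 to 5130 CPM.

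Some libraries stood apart before any comparison. Ribosomal protein genes summed to 4922 CPM in Twi P15 replicate 1 against 10196 CPM in replicate 2 and 9405 to 12006 CPM at P20. The same replicate lay at 79.3 on the third principal component, where the next library lay at 22.1. Cx3cr1, the fractalkine receptor of microglia, measured 67.8 CPM in Twi P15 replicate 1 against 4533 CPM in replicate 2, and 5383, 3769 and 3859 CPM at P20. It was as low in Twi P10 replicate 3 (71.2 CPM) and WT P15 replicate 2 (70.0 CPM), while the other 12 libraries held at least 2951 CPM. Esr1, the estrogen receptor gene, was highest in the same libraries, at 303 CPM in Twi P15 replicate 1 against 2.60 to 6.89 CPM in the other Twi P15 and P20 libraries. Both genes were chosen after their values were seen, the labels name no allele at either, and their part in the results was not tested. The leading counts are therefore also given without the 3 libraries with low Cx3cr1, which leaves 1 library at P15 whose spread is taken from the other groups. For log2 differences between the ages in Twi, this is the same as leaving out Twi P15 replicate 1 and is no separate check. Genes of the Y chromosome were high in Twi P20 replicate 2 alone among the 5.

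**Figure D1:**
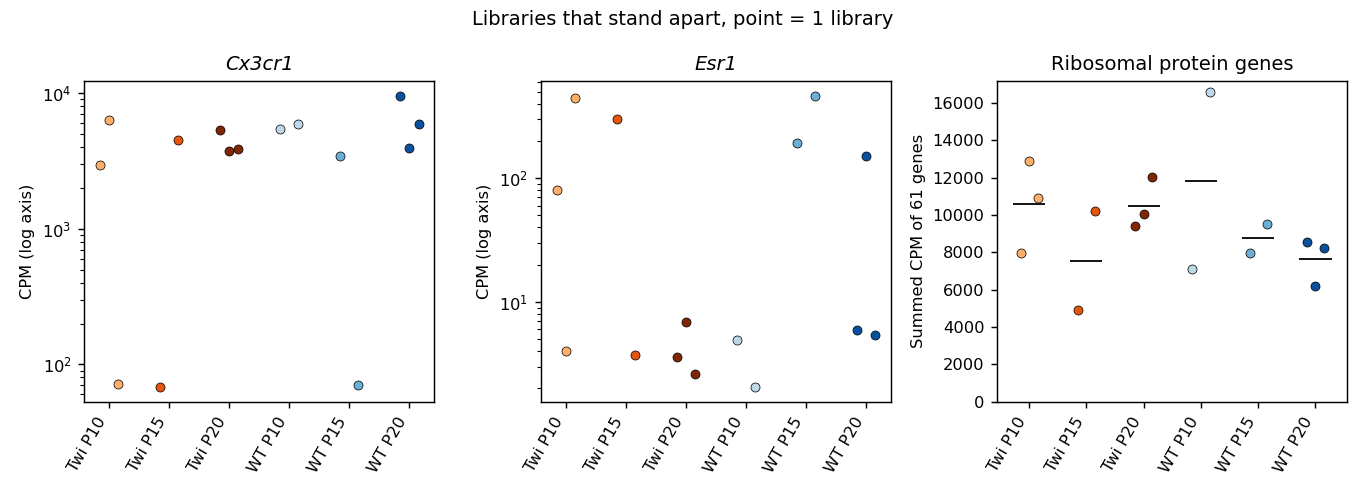
Levels of Cx3cr1 and Esr1 in CPM on log axes, and the summed CPM of 61 ribosomal protein genes on a linear axis, for each library by group, with bars at the group mean in the last panel. Twi P15 replicate 1 holds 67.8 CPM of Cx3cr1, 303 CPM of Esr1 and a ribosomal sum of 4922 CPM.

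The step from P15 to P20 in Twi cells changed few genes past the threshold. Of 13292 genes tested, 2 were called at a limma adjusted p under 0.05 (0.0150% of all genes), both higher at P20, and 0 were called lower. Those genes were Tuft1, which encodes tuftelin, a protein first known from tooth enamel, and Ociad2, a mitochondrial protein. At an unadjusted p under 0.05 there were 1154 genes (8.68%), of which 578 were higher (4.35%) and 576 lower (4.33%). The P20 libraries did not overlap the P15 libraries in 1367 genes on the higher side (10.3%) and 1513 on the lower side (11.4%).

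Tuft1 was at 0 CPM in both P15 libraries and at 3.27, 3.29 and 4.76 CPM in the P20 libraries, so the groups did not overlap. The limma adjusted p was 0.000214. At P10 the Twi libraries held 4.86, 5.39 and 3.57 CPM, so among the Twi groups it was P15 that had none listed. In WT the levels were 0.691 and 1.44 CPM at P15 and 3.53, 2.19 and 3.43 CPM at P20.

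Ociad2 was at the lowest value of the table in both P15 libraries and at 3.84, 2.35 and 2.87 CPM at P20 (limma adjusted p = 0.0054). Twi P10 libraries held 2.62, 3.64 and 3.68 CPM, again at the side of P20. In WT it was present at P10, at 4.57 and 5.32 CPM, with 0 CPM in both P15 libraries and at most 0.0156 CPM at P20.

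Both calls rest on low levels and on the spread shared over all libraries. In a fit of the 5 Twi libraries alone, 0 genes were called and both genes had a limma adjusted p of 0.248. Tuft1 was not called on log2(TPM + 1) (limma adjusted p = 0.102), nor Ociad2 in batch 2 alone (0.0687) or with quantile normalization (0.0625). Without Twi P15 replicate 1, 9 genes were called, all higher, without Twi P15 replicate 2 there were 27, all higher, and without the 3 libraries low in Cx3cr1 there were 10. In that last fit Tuft1 had a limma adjusted p of 0.00949 and Ociad2 0.0612.

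Presence or absence across the step was not limited to those genes. Beside Tuft1 and Ociad2, the genes at the lowest value in both P15 libraries and at 1 CPM or more in all P20 libraries were Fam214a, Tapt1 and the predicted gene Gm10705, 5 in all. Ak4, a mitochondrial adenylate kinase, Alg10b, a glucosyltransferase of N-glycan assembly, and Ncr1, the receptor NKp46 of natural killer cells, did the opposite. Alg10b measured 3.74 and 1.77 CPM at P15 and was at the lowest value in the P20 libraries of both genotypes, with 9.03 and 2.997 CPM in WT at P15. Its limma adjusted p was 0.14, and 0.0386 without WT P10 replicate 1 and 0.0201 without the unnumbered WT P10 library.

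**Figure D2:**
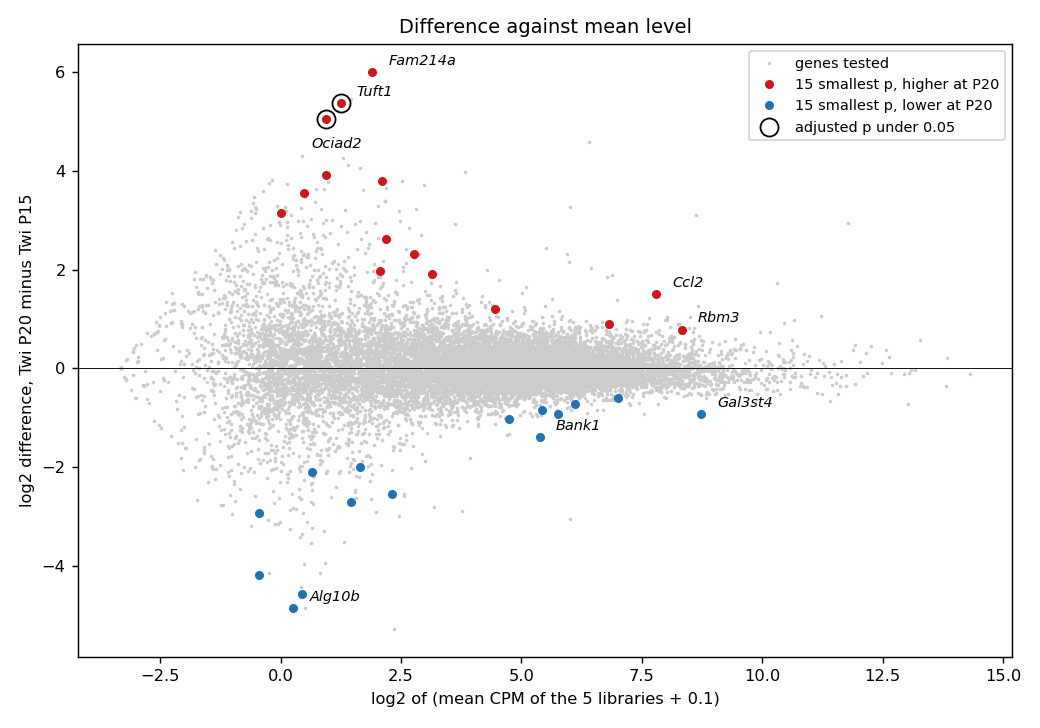
Log2 difference of Twi P20 minus Twi P15 against the log2 of the mean CPM of the 5 libraries plus 0.1, 1 grey point per gene tested, with the 15 genes of smallest p in each direction in red and blue and the 2 called genes ringed. Among the coloured genes, 10 of the higher 15 and 8 of the lower 15 have a group mean under 10 CPM at the age where they are more abundant, and the fitted difference of a gene absent from a group depends on the table's lowest value.

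Below the threshold, the 15 genes with the smallest p on the higher side ran from the called ones to a limma adjusted p of 0.219, and the 15 on the lower side from 0.14 to 0.295. They were chosen by p, so that none overlaps between the ages says nothing further. In 14 of the 15 higher genes and 11 of the 15 lower genes, the mean at P10 lay beyond both P15 libraries on the side of P20. The steps before and after share the P15 libraries, so this is a description of levels.

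Ccl2, the chemokine that draws monocytes through CCR2, measured 77.1 and 142 CPM at P15 and 251, 278 and 368 CPM at P20. Its log2 difference was 1.50 ± 0.30 (SE), with a limma adjusted p of 0.164. All WT libraries lay between 20.7 and 35.5 CPM. Trex1, the exonuclease that clears cytosolic DNA, measured 65.5 and 82.9 CPM at P15 and 136, 147 and 131 CPM at P20 (log2 difference 0.90 ± 0.18, limma adjusted p = 0.164). Rbm3, an RNA-binding protein induced by cold, measured 195 and 257 CPM against 402, 407 and 348 CPM (0.78 ± 0.16, limma adjusted p = 0.164). R3hcc1 had 2.73 and 3.69 CPM at P15, and 11.9, 9.95 and 15.3 CPM at P20, with 7.52 to 12.8 CPM at P10. Pik3c2a, a lipid kinase of endocytosis, likewise stood at 11.9 and 12.4 CPM at P15 against 25.5 to 30.7 CPM at P20 and 25.7 to 31.1 CPM at P10. In these last genes, and in Rbm3 with 302 to 340 CPM at P10, the P15 libraries lay under both the P10 and the P20 libraries.

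On the lower side, Gal3st4, a sulfotransferase that acts on galactose, measured 572 and 604 CPM at P15 and 357, 243 and 341 CPM at P20 (log2 difference -0.93 ± 0.18, limma adjusted p = 0.164). Its Twi P10 libraries held 506 to 601 CPM, close to P15. Bank1, a scaffold of B cell receptor signalling, stood at 58.8 and 70.8 CPM and then at 35.6, 15.6 and 26.9 CPM (-1.39 ± 0.26, limma adjusted p = 0.14, and 0.0461 without Twi P20 replicate 1). Mef2d, a transcription factor of the MEF2 family, measured 37.8 and 38.6 CPM against 19.4, 18.5 and 18.4 CPM (-1.02 ± 0.20, limma adjusted p = 0.164). Pfkl, the liver-type phosphofructokinase of glycolysis, measured 160 and 159 CPM against 103, 103 and 112 CPM (-0.59 ± 0.14, limma adjusted p = 0.258). Sipa1l1, a GTPase-activating protein, measured 8.77 and 10.4 CPM against 2.52, 0.852 and 1.78 CPM. In each of these genes all P20 libraries lay under both P15 libraries, which says nothing further for genes chosen by p. With all libraries, each limma adjusted p was above 0.05.

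**Figure D3:**
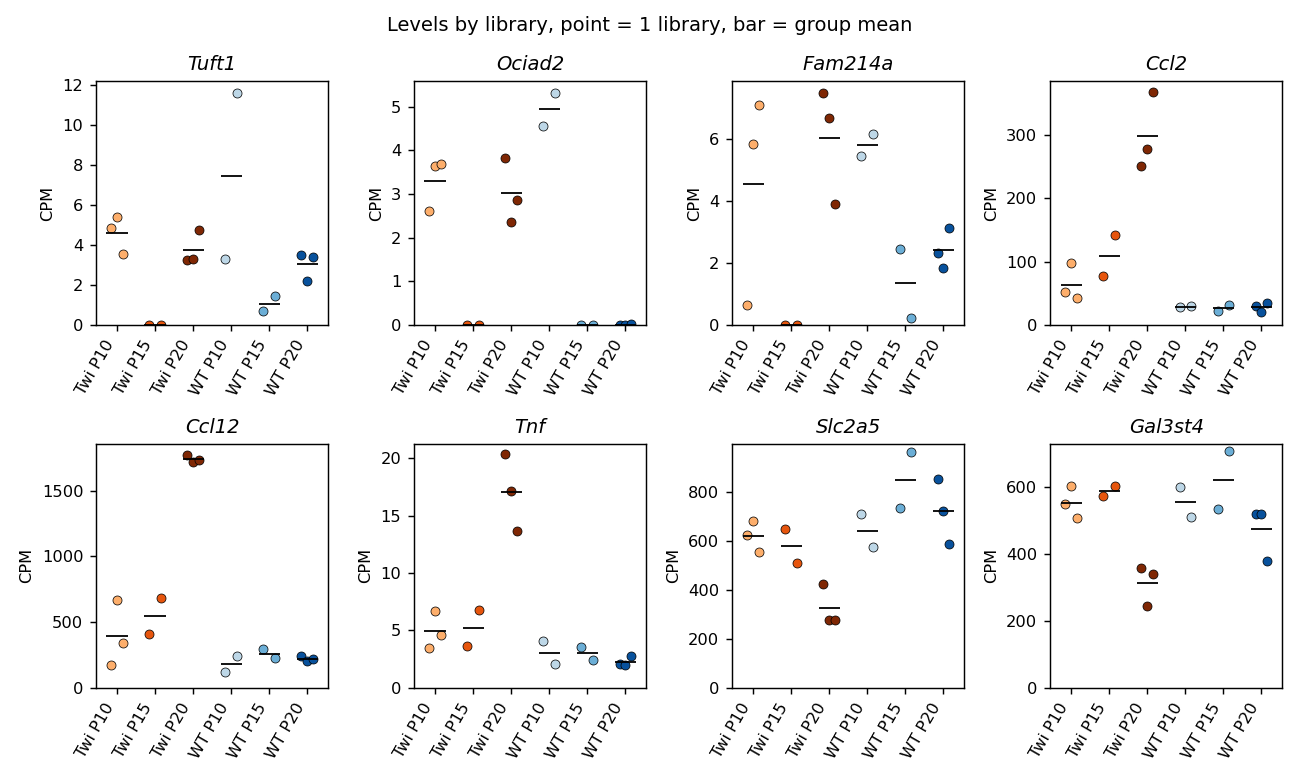
CPM of 8 genes in every library by genotype and age, on linear axes from 0, with bars at group means. Tuft1, Ociad2 and Fam214a are absent from both Twi P15 libraries, Ccl2, Ccl12 and Tnf are highest in the Twi P20 libraries, and Slc2a5 and Gal3st4 are lowest there.

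Groups of genes were described by the count and the median of their log2 differences, beside a median of 0.01 over all genes tested and 51.0% of genes above 0. No member of any list was called. In the main fit a log2 difference depends only on the 5 Twi libraries at P15 and P20, all of batch 2. Alternative fits that drop other libraries, or change only the batch term or the variance, leave it unmoved. The ranges of medians and log2 differences below therefore come from the remaining alternatives. Over the 30 alternative fits, 6 list members were called at least once by limma. They were Kit without the libraries low in Cx3cr1 (adjusted p = 0.0259), Ccl2 (0.0433), Gins2 (0.0437) and Bcl2a1b (0.0273) without Twi P15 replicate 2, Dusp2 on log2(TPM + 1) (0.0428, lower at P20) and Cma1 without the filter (0.00413, lower at P20).

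Chemokines and cytokines lay mostly on the higher side at P20. Of 39 tested genes of the list of inflammatory cytokines, chemokines and NF-kB, 32 were above 0, 16 had P20 libraries that all lay above P15 (41.0%, against 10.3% of all genes), and 11 had an unadjusted p under 0.05 on the higher side (28.2%, against 4.35%). The median log2 difference was 0.41, against 0.06 for the same step in WT, and it ran from 0.31 to 0.59 over 30 alternative fits. Without the libraries low in Cx3cr1, 30 of 39 were above 0. Ccl12, another ligand of CCR2, measured 411 and 681 CPM at P15 and 1774, 1721 and 1733 CPM at P20 (1.72 ± 0.38, limma adjusted p = 0.258). The WT libraries at P15 and P20 held 203 to 292 CPM. Tnf, the inflammatory cytokine, measured 3.64 and 6.76 CPM and then 20.3, 17.1 and 13.7 CPM (1.74 ± 0.43, limma adjusted p = 0.315). Tlr2, a receptor for bacterial lipoproteins, stood at 324 and 282 CPM against 370, 409 and 456 CPM. Ccl7 measured 18.1 and 30.8 CPM against 38.7, 43.8 and 58.4 CPM. These genes were named for their small p, so that none overlaps between the ages says nothing further.

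Interferon-stimulated genes behaved alike in count. Of 46 tested, 41 were above 0, 16 had P20 libraries all above P15 (34.8%, against 10.3% of all genes), and 6 had an unadjusted p under 0.05 on the higher side (13.04%, against 4.35%), with a median of 0.44 (0.32 to 0.58 over the alternatives) and 0.15 in WT. Without the libraries low in Cx3cr1, 44 of 46 were above 0. Their summed levels overlapped between the ages, at 5504 and 4543 CPM at P15 and 5463, 7113 and 6540 CPM at P20. Parp14, an ADP-ribosyltransferase, measured 65.0 and 65.3 CPM at P15 and 115, 147 and 115 CPM at P20 (0.94 ± 0.27, limma adjusted p = 0.372). Cxcl10, the chemokine that binds CXCR3, measured 7.31 and 11.1 CPM against 23.5, 34.7 and 38.0 CPM (1.79 ± 0.62, limma adjusted p = 0.47). WT libraries held at most 3.54 CPM of it. Isg15, a ubiquitin-like modifier, measured 16.6 and 20.3 CPM against 27.1, 50.2 and 52.6 CPM, and Mx2, a GTPase that restricts viruses, 10.2 and 11.3 CPM against 20.6, 24.5 and 17.3 CPM.

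Interferon acts on such genes through a response element in their promoters. It is shown here for 4 members whose 250 bases before the start hold it. They were taken in order of p with no limit on p. The element was searched as GAAA, any 2 bases and GAAA on both strands, where overlapping matches can merge, and capitals mark the matches. Sequences are from RefSeq on build GRCm38.p6, written along the gene's strand, at chr5:92348890-92349139 (minus strand) for Cxcl10, chr4:156200819-156201068 (minus) for Isg15, chr8:71537473-71537722 (minus) for Bst2 and chr11:82951852-82952101 (plus) for Slfn5.
Cxcl10: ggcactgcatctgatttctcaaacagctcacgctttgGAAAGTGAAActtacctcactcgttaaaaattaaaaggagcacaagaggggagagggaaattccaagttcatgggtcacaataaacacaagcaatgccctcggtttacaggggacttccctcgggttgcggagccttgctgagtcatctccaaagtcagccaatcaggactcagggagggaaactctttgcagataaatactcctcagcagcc
Isg15: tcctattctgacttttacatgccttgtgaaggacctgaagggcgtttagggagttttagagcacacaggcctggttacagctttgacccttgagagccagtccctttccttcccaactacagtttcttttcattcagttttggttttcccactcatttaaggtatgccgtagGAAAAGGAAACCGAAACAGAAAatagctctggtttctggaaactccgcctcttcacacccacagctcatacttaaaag
Bst2: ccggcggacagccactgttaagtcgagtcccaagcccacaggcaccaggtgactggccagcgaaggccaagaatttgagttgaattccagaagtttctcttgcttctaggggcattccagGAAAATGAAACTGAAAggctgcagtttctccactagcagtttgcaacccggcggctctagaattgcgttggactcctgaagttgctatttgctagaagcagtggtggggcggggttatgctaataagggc
Slfn5: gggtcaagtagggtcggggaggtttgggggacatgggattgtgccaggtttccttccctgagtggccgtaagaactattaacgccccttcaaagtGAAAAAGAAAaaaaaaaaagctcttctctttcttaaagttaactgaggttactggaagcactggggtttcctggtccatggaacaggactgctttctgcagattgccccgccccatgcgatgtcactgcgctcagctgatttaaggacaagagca
Of the 46 tested members 35 had a promoter in the table, and 23 of them (65.7%) held the element in the 300 bases from 250 before to 50 after the start, against 3.99% of 27025 genes. For the cytokine list, the NF-kB letters (GGG, any 2 bases and TTTCC, both strands) stood in 7 of 26 promoters (26.9%) against 1.89% of all. Bst2, the tethering factor tetherin, measured 84.4 and 158 CPM at P15 and 147, 173 and 208 CPM at P20, with groups that overlap. Slfn5 measured 43.8 and 32.7 CPM against 47.2, 77.1 and 59.9 CPM. A match describes letters in a window and says nothing of binding. The shares count every tested member with a promoter, whatever its difference between the ages. They are set against all genes with a promoter, tested or not. They thus describe the lists and say nothing of the step from P15 to P20.

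MHC class I and peptide loading had 15 of 24 genes above 0 and a median of 0.16. Of them 4 had P20 libraries all above P15 (16.7%, against 10.3% of all genes) and 0 all under, and 3 had an unadjusted p under 0.05 on the higher side (12.5%, against 4.35%). The median was 0.017 without Twi P20 replicate 3, 0.026 without Twi P15 replicate 1 and 0.26 without Twi P20 replicate 1. Tap2, a subunit of the peptide transporter, measured 143 and 130 CPM against 180, 185 and 178 CPM (0.41 ± 0.15, limma adjusted p = 0.525). The median for MHC class II was 0.11 over 13 genes and turned to -0.16 without Twi P20 replicate 3.

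Genes of the list for resting microglia lay mostly, but not all, on the lower side. Of 36 tested, 28 were below 0, 12 had all P20 libraries under P15 (33.3%, against 11.4% of all genes) and 8 had an unadjusted p under 0.05 on the lower side (22.2%, against 4.33%). The median was -0.30, against -0.17 in WT. Over the alternatives it ran from -0.42 without Twi P20 replicate 1 to -0.18 without Twi P20 replicate 3. Without the libraries low in Cx3cr1, 31 of 36 were below 0. Slc2a5, a fructose transporter, measured 648 and 511 CPM at P15 and 423, 275 and 276 CPM at P20 (-0.86 ± 0.21, limma adjusted p = 0.304). P2ry12 measured 11770 and 9673 CPM against 8915, 5133 and 6009 CPM (-0.71 ± 0.20, limma adjusted p = 0.34). Fcrls stood at 3047 and 3948 CPM against 2335, 1735 and 2605 CPM, and Gpr34, a lysophosphatidylserine receptor, at 3891 and 3455 CPM against 3229, 1963 and 2656 CPM. Gpr84, a receptor for medium-chain fatty acids that the list includes, was among 8 genes above 0, at 370 and 327 CPM against 525, 427 and 501 CPM. Whether it marks the resting state in these cells was not tested. The markers Tmem119, Csf1r, Sall1 and Cx3cr1 overlapped between the ages. Tmem119 measured 5130 and 3707 CPM against 4681, 3492 and 2589 CPM. Csf1r measured 5006 and 4582 CPM against 5629, 4152 and 3840 CPM, and Sall1 259 and 214 CPM against 275, 182 and 168 CPM. Twi P20 replicate 1 held the most Slc2a5, P2ry12 and Gpr34 of the P20 libraries.

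The list of disease-associated microglia had 23 of 34 genes above 0 and a median of 0.15, which was -0.06 without Twi P15 replicate 1 and 0.44 without replicate 2. Axl, a receptor for dying cells, measured 142 and 105 CPM against 157, 236 and 162 CPM. Timp2, an inhibitor of metalloproteinases, measured 105 and 104 CPM against 82.1, 68.0 and 89.4 CPM.

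Lysosomal genes had a median of -0.08 over 61 genes, with 13 whose P20 libraries all lay under P15 (21.3%, against 11.4% of all genes) and 4 above (6.56%, against 10.3%). At an unadjusted p under 0.05 in limma, 3 were lower (4.92%, against 4.33% of all genes) and 1 higher (1.64%, against 4.35%). The share lower by that measure was thus near that of all genes. The median ran from -0.17 to -0.015 over the alternatives, nearest to 0 without Twi P20 replicate 3. Arsb, which removes sulfate from dermatan and chondroitin sulfate, measured 279 and 367 CPM at P15 and 228, 200 and 208 CPM at P20 (-0.59 ± 0.16, limma adjusted p = 0.339). Hexa, the alpha subunit of hexosaminidase, measured 655 and 827 CPM against 493, 494 and 541 CPM. Sphingolipid genes had a median of 0.03 over 44 genes, which was 0.13 without Twi P15 replicate 1 and turned to -0.09 without replicate 2. The ceramide synthase Cers4 measured 1.44 and 1.52 CPM at P15 against 5.11, 5.39 and 6.37 CPM at P20.

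Cholesterol synthesis genes had 22 of 26 above 0, with 11 whose P20 libraries all lay above P15 (42.3%, against 10.3% of all genes). The median was 0.36 (0.25 to 0.42 over the alternatives), against 0.09 in WT. Without the libraries low in Cx3cr1, 23 of 26 were above 0. Sc5d, a sterol desaturase, measured 47.7 and 67.5 CPM against 87.3, 77.6 and 89.8 CPM (0.58 ± 0.17, limma adjusted p = 0.382). Lss, which closes the sterol rings, measured 14.0 and 6.68 CPM against 28.6, 29.7 and 14.6 CPM. Insig2, a protein that holds back the sterol sensor, lay lower, at 126 and 107 CPM against 104, 79.3 and 89.0 CPM.

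Lipid uptake, storage and efflux had 25 of 42 genes above 0 and a median of 0.13, which was 0.03 without Twi P15 replicate 1 and 0.26 without Twi P20 replicate 1. Abca9, a lipid transporter, measured 825 and 700 CPM against 607, 465 and 530 CPM (-0.52 ± 0.13, limma adjusted p = 0.315), while all WT libraries held at least 1114 CPM. Nceh1, a cholesteryl ester hydrolase, measured 39.3 and 47.6 CPM against 62.5, 77.7 and 89.9 CPM. Complement and phagocytosis had a median of 0.07 over 41 genes, which turned to -0.08 without Twi P15 replicate 1 and was 0.18 without replicate 2. Cfb, an activator of the alternative pathway, measured 76.5 and 82.7 CPM against 105, 126 and 133 CPM.

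**Figure D4:**
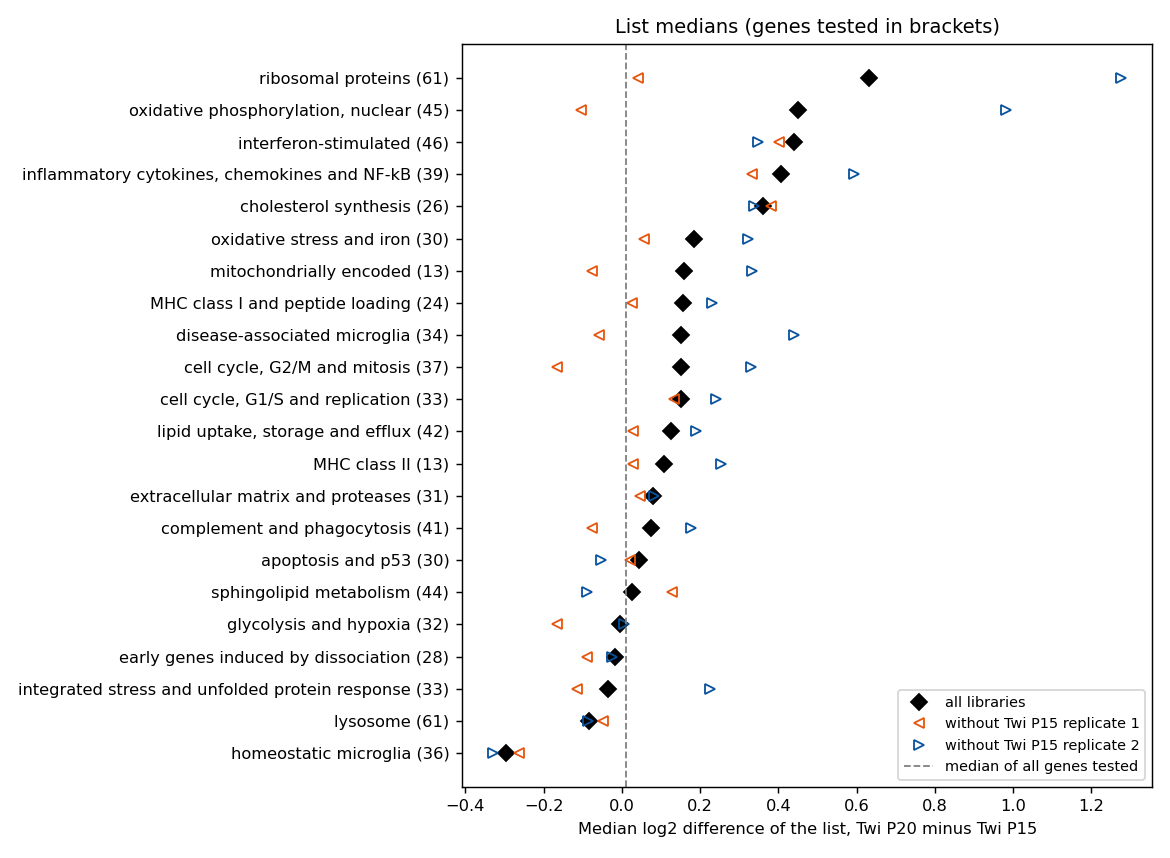
Median log2 difference of Twi P20 minus Twi P15 for 22 gene lists, with the number of genes tested in brackets, from all libraries and with either P15 library left out. Ribosomal protein genes go from 0.63 to 0.04 without Twi P15 replicate 1 and 1.28 without replicate 2, while interferon-stimulated, cytokine, cholesterol synthesis and homeostatic genes stay on their side of 0 in both.

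Several medians turned on which P15 library was kept. Ribosomal protein genes, the parts of the ribosome, had 59 of 61 above 0 and a median of 0.63, which was 0.04 without Twi P15 replicate 1 and 1.28 without replicate 2. Such genes have many near-identical pseudogenes that can share reads. Rpl18, of the large subunit, stood at 45.9 and 113 CPM at P15 and 117, 124 and 148 CPM at P20. Nuclear genes of oxidative phosphorylation had a median of 0.45, which was -0.10 without replicate 1 and 0.98 without replicate 2. Cell cycle genes of G2/M had a median of 0.15, which was -0.17 without replicate 1 and 0.33 without replicate 2. Bub1, a kinase of the spindle checkpoint, measured 3.44 and 7.39 CPM against 12.7, 12.2 and 14.95 CPM, and 14.2 to 25.6 CPM at P10.

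The remaining function lists had medians between -0.03 and 0.18. They were oxidative stress and iron (0.18), mitochondrially encoded genes (0.16), G1/S and replication (0.15), extracellular matrix and proteases (0.08), apoptosis and p53 (0.04), glycolysis and hypoxia (-0.005), early genes induced by dissociation (-0.02), and integrated stress (-0.03). Single libraries moved these medians too. Without Twi P15 replicate 1 they were 0.058 for oxidative stress, -0.075 for mitochondrially encoded genes, -0.17 for glycolysis, -0.09 for dissociation genes and -0.11 for integrated stress. Without Twi P15 replicate 2 they were 0.32 for oxidative stress, 0.33 for mitochondrially encoded genes, -0.055 for apoptosis and 0.23 for integrated stress. Without Twi P20 replicate 1 they were 0.35 for extracellular matrix, 0.26 for G1/S and 0.076 for dissociation genes. Socs3, an inhibitor of cytokine signalling in the dissociation list, measured 3.96 and 3.66 CPM against 12.01, 12.7 and 8.39 CPM (1.49 ± 0.41, limma adjusted p = 0.339). Slc40a1, the iron exporter ferroportin, measured 444 and 382 CPM against 312, 249 and 276 CPM.

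Markers of other cells that the sort could take differed between libraries. The 20 neutrophil markers summed to 13714 and 19405 CPM at P15 and to 17920, 19875 and 37500 CPM at P20, so the groups overlap and Twi P20 replicate 3 stands apart. The 23 monocyte markers summed to 6223 and 7025 CPM against 6050, 8228 and 13664 CPM, with a median of 0.46 that was 0.17 without Twi P20 replicate 3. In WT at P20 the neutrophil sum ran from 13984 to 32238 CPM. Erythroid markers reached 952 CPM in Twi P20 replicate 3 against 75.3 to 280 CPM in the other P20 libraries. The part of these cells in the cytokine, interferon and homeostatic values was not tested. Without Twi P20 replicate 3 those medians were 0.36, 0.37 and -0.18.

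**Figure D5:**
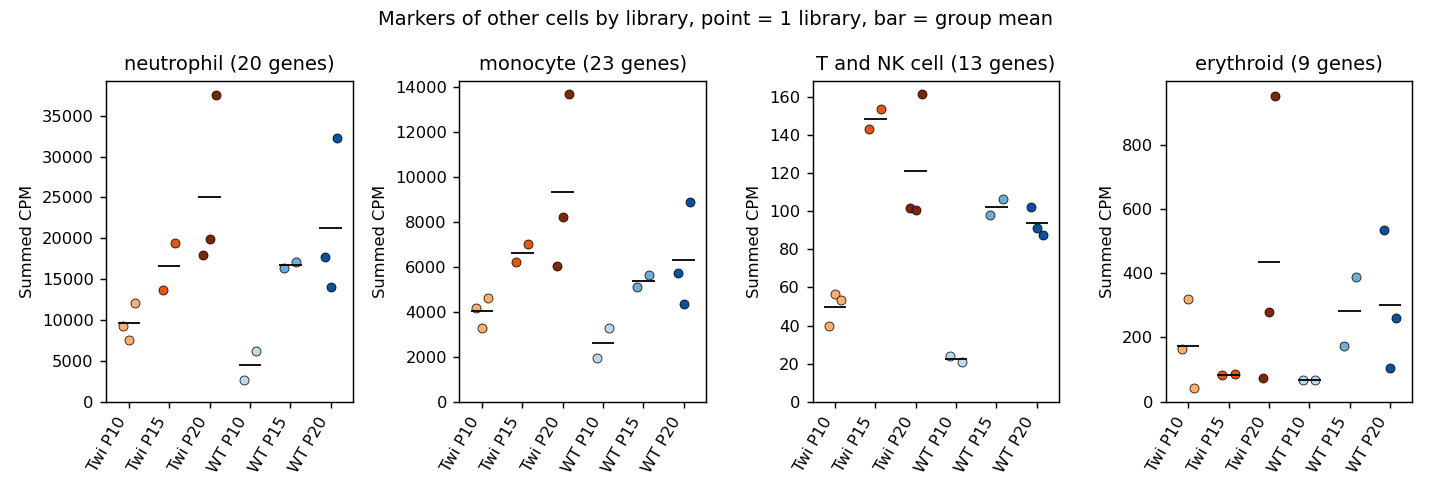
Summed CPM of marker genes of neutrophils, monocytes, T and NK cells and erythroid cells in every library by genotype and age, on linear axes from 0, with bars at group means. Twi P20 replicate 3 holds the highest neutrophil sum, 37500 CPM, and the highest erythroid sum, 952 CPM.

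T and NK cell markers summed to 143 and 154 CPM at P15 and to 102, 101 and 161 CPM at P20, with a median of -0.61 over 13 genes. Ncr1 measured 1.19 and 5.39 CPM at P15 and 0 CPM in all P20 libraries. Of 4 mast cell genes, 3 were above 0. Ms4a2, a chain of the IgE receptor, measured 0 and 0.342 CPM against 3.75, 2.69 and 5.04 CPM. Kit measured 1.57 and 0 CPM against 3.46, 4.05 and 3.10 CPM. Hdc lay the other way, with log2 differences of -0.86 to -0.27 over 30 alternative fits. The 4 genes summed to 148 and 150 CPM at P15 and to 80.3, 105 and 173 CPM at P20, so the groups overlap. The mast cell median turned to -0.56 with a mean of at least 10 CPM. Medians were 0.50 for neutrophil, 0.02 for border-associated macrophage, 0.21 for dendritic cell, -0.23 for B cell, -0.07 for oligodendrocyte, 0.08 for neuron and -0.84 for endothelial and mural cell genes. Small lists at low levels had wide medians, 3.09 for mast cell, 1.90 for erythroid and 1.24 for astrocyte genes. Those for oligodendrocyte precursor (2 genes) and choroid plexus with ependyma (4 genes) were -0.91 and 0.58. Many turned on 1 library. Without Twi P15 replicate 1 the medians were 0.21 for neutrophil, -0.22 for border-associated macrophage, 0.60 for neuron, -0.46 for B cell, 1.67 for mast cell, 0.46 for astrocyte and -0.16 for oligodendrocyte precursor genes. Without Twi P15 replicate 2 they were -0.08 for dendritic cell, -0.24 for oligodendrocyte, -0.27 for neuron, -0.31 for T and NK cell, 0.28 for astrocyte and -1.65 for oligodendrocyte precursor genes. Without Twi P20 replicate 3 they were -0.24 for border-associated macrophage, 0.16 for oligodendrocyte, -1.22 for T and NK cell, 0.94 for erythroid and -0.35 for choroid plexus genes.

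Markers of cells that lack CD45 and CD11b were mostly above the lowest value of the table. Of 17 oligodendrocyte and myelin genes, 0 were at the lowest value in all 5 libraries, and their sum ran from 3443 to 4255 CPM at P15 and from 2763 to 3473 CPM at P20. Trf, the gene of transferrin, made up 2576 to 4035 CPM of it. Of 15 endothelial and mural genes 4 were at the lowest value (Cldn5, Slco1a4, Vtn and Kcnj8), with sums of 251 to 436 CPM at P15 and 345 to 719 CPM at P20, of which Pglyrp1, also a gene of neutrophils, made up 169.6 to 678 CPM. Astrocyte genes (1 of 14 at the lowest value, Ntsr2) summed to 251 to 279 CPM and 196 to 289 CPM, and neuron genes (1 of 18, Slc17a7) to 78.7 to 89.3 CPM and 68.8 to 84.7 CPM. Oligodendrocyte precursor genes (1 of 10, Olig2) summed to at most 3.14 CPM and choroid plexus genes (4 of 10) to 4.43 to 12.7 CPM at P15 and 4.17 to 111 CPM at P20. The part of these cells in the results was not tested.

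Whether the step differed from that in WT was tested as an interaction. No gene was called in WT between P15 and P20 (398 at an unadjusted p under 0.05, 2.99%), and no gene was called for the difference of the steps by limma (702, 5.28%, of which 382 higher, 2.87%, and 320 lower, 2.41%). The smallest adjusted p of the difference in limma was 0.354, for Ociad2 and Tuft1. Abhd4, an enzyme of N-acyl phospholipid breakdown, had the next smallest p, with 69.2 and 49.5 CPM in Twi at P15 and 23.2, 36.9 and 33.0 CPM at P20. Its WT libraries held 21.0 and 14.5 CPM at P15 and 70.4, 34.6 and 60.9 CPM at P20 (log2 difference of the steps -2.55 ± 0.51, limma adjusted p = 0.697). Mef2d had -1.31 ± 0.29 and Cldn12, a claudin, 4.27 ± 0.93, at the same limma adjusted p of 0.697. The median difference of the steps was 0.36 for cytokine, 0.16 for interferon and 0.26 for cholesterol genes. The larger medians in Twi given above for these lists are thus not shown to differ from WT gene by gene.

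The step before, from P10 to P15, had 39 genes called (0.293%), 25 higher (0.188%) and 14 lower (0.105%). It shares the P15 libraries with the later step, so values are set side by side only. The interferon median was 0.75 from P10 to P15 and 0.44 from P15 to P20, and the cytokine median 0.89 and 0.41. The G2/M median was -0.81 and then 0.15, and the homeostatic median 0.01 and then -0.30.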

How the data were processed

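Per the submitters' processing notes, kallisto 0.46.0 quantified the reads of the 15 libraries, with GRCm39 as build. Per the labels, cDNA was amplified for 16 to 19 cycles with a kit for low RNA amounts, and sequencing gave 29 to 42 M read pairs per library, 70.24% mapped on average. The authors deposited TMM-normalized log2 CPM, whose lowest value is -3.44, and a table of TPM. CPM was computed here as 2 to the value less its lowest. Whole reads were not recovered, so no count test was run and depth per library is known only from the labels. A row without a gene name held 0.0282% to 0.0687% of each library and was left out.

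Genes at 1 CPM or more in at least 2 libraries (13292) were fitted with limma 3.58.1 in R 4.3.3: 6 genotype-by-age groups plus batch, trended robust variance, 8 residual degrees of freedom, Benjamini-Hochberg adjustment over all genes. The scripts were tested on simulated data, with changes planted only in genes of higher mean level than Tuft1 and Ociad2. That test says nothing of calls on genes as low as these. Fold changes are on the deposited log2 scale and understate low genes. A WT P10 library whose column has no matching number was kept as an unnumbered replicate in batch 1. Samples were not paired by replicate number in the main fit. Deviations of same-numbered Twi P15 and P20 libraries from their group means correlated at 0.0573 and 0.00876. With 2 libraries at P15 their deviations mirror each other, so these values cannot decide whether the numbers pair the samples.

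Named genes are Galc, the 15 smallest p in each direction where under 5 were called (predicted genes left out), up to 5 smallest p per list and the 10 smallest p of the difference of the steps; some were left out for length, and Bst2 and Slfn5 were added for their promoters. Members and lists were chosen with earlier results of these data known.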

Additional observations from a re-analysis of the deposited data

How the results depend on the processing

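The count of called genes in Twi P20 against P15, 2 in all, was 0 in the 5 Twi P15 and P20 libraries alone (737 at an unadjusted p under 0.05), 0 with a mean of at least 10 CPM (729), and 1 in batch 2 alone, with quantile normalization, and with a replicate block. It was 2 to 27 with a library left out, reaching 9 without Twi P15 replicate 1 and 27 without Twi P15 replicate 2. Without the 3 libraries with low Cx3cr1, an alternative chosen after seeing the data, it was 10. Genes called higher followed the same counts, with 1 on log2(TPM + 1). Genes called lower, 0 in all libraries, were 1 on log2(TPM + 1), on log2(CPM + 1) and without the filter, and 0 to 1 with a library left out. The WT count of 0 was 5 in batch 2 alone, 1 with a replicate block, 4 without the low Cx3cr1 libraries and 0 to 4 with a library left out, highest without WT P15 replicate 2. For the difference of the steps 0 became 1 without trended robust variance and 0 to 4 with a library left out. Some uncalled genes changed sign. With a library left out, log2 differences ran from -0.10 to 0.29 for Galc, -0.21 to 1.61 for Ube2c, -0.037 to 1.15 for mt-Co2, -0.075 to 0.80 for mt-Atp8, -0.13 to 0.72 for mt-Nd2, -0.016 to 0.75 for Wdfy4, -0.39 to 0.031 for Ighd and -0.60 to 2.78 for Map2. They ran from -4.95 to 1.01 for Pdgfrb, -2.01 to 0.17 for Acta2, -0.65 to 2.33 for Enpp2, -0.72 to 0.43 for Kl and -0.79 to 1.03 for Folr1. Without the low Cx3cr1 libraries Ube2c was -0.21, mt-Co2 -0.037, mt-Atp8 -0.075, mt-Nd2 -0.13 and Pdgfrb 1.01. Folr1 was -0.085 with the replicate block, -0.038 on log2(TPM + 1) and -0.040 with library quality weights. With the replicate block Ociad2 had a limma adjusted p of 0.131. The cause was not tested.

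Limits are 2 libraries at P15, 1 of which stands apart, and amplified reads without molecular identifiers, which are not independent molecules. Depth in reads is not known per library, so genes of a few CPM, Tuft1 and Ociad2 among them, carry an unknown counting error.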

Other observations

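Cx3cr1 and Esr1 levels over the other libraries follow as values. Esr1 measured 446 CPM in Twi P10 replicate 3 and 465 CPM in WT P15 replicate 2, the other libraries with low Cx3cr1. It measured 79.5 CPM in Twi P10 replicate 1, 191 CPM in WT P15 replicate 1 and 152 CPM in WT P20 replicate 2, where Cx3cr1 was 2951, 3432 and 3964 CPM. In WT libraries without raised Esr1, Esr1 ran from 2.04 to 5.94 CPM.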
